A study of Homo sapiens with 18 samples.

Results

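The transcripts described here are those of 10 genes that are read together when a carcinoma cell is placed between an epithelial and a mesenchymal state: 4 cadherins (CDH1, CDH2, CDH3 and CDH11), 4 transcription factors (SNAI1, SNAI2, ZEB1 and TWIST1), the intermediate filament gene VIM and the matrix gene FN1. They were chosen by gene symbol, and all 10 are among the 20365 genes of both deposited expression tables. RNA was sequenced from PC3, an established human prostate cancer line, in 18 libraries that form 6 groups of 3. In the knockdown experiment PC3 cells received a lentivirus whose short hairpin RNA was a control (Control KD) or targeted the Elongin B (EloB KD) or Elongin C transcript (EloC KD), in RPMI with 10% fetal calf serum. In the peptide experiment cells whose labels name no hairpin were kept in 2.5% serum and exposed for 24 h to a peptide at 12.5 µM. The peptide carried the BC-box in its wild-type form (WT peptide), in a mutant form (Mutant peptide) or with its sequence scrambled (Scrambled peptide). Elongin B and Elongin C form the adaptor through which BC-box proteins such as VHL join cullin ubiquitin ligases, and through which Elongin A acts in transcription elongation. How many hairpins were used per gene is not given in the sources used here, so an effect of 1 hairpin and an effect of losing the protein cannot be told apart.

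Cadherins are membrane proteins that bind their own kind on the neighbouring cell and are tied to actin through catenins. Epithelial cells carry mainly E-cadherin (CDH1), and in an epithelial-mesenchymal transition E-cadherin is lost while N-cadherin (CDH2) or OB-cadherin (CDH11) appears, an exchange called the cadherin switch. SNAI1, SNAI2 and ZEB1 are zinc finger repressors that bind E-box sequences of the CDH1 promoter, and TWIST1 is a basic helix-loop-helix factor that acts beside them. PC3 was grown from a bone metastasis, lacks androgen receptor and is known to have lost αE-catenin.

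Levels are DESeq2-normalised read counts, and the 2 experiments were normalised separately, so no test was made between them. Libraries held 40.3 to 57.2 M counted reads in the knockdown and 31.7 to 34.7 M in the peptide experiment. The targeted genes fell as labelled: ELOB had 478.3 to 596.3 normalised counts in EloB KD against 2626 to 4950 in Control KD, and ELOC had 491.8 to 557.9 in EloC KD against 4097 to 4797. All 5 markers of a prostate epithelial line (KRT8, KRT18, KRT19, EPCAM, HOXB13) were expressed, with a summed level of 49847 to 57566 in Control KD, 32419 to 38470 in EloB KD, 26330 to 33394 in EloC KD and 31436 to 37308 in the peptide libraries. KLK3, which encodes the androgen-dependent antigen PSA, was at 0 in all 18 libraries. Same-numbered libraries deviated together in both experiments, so counts and calls with the replicate number as a block are given beside those without it where they differ.

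VIM was by far the most abundant of the 10 transcripts in every group. In Control KD the level per kb of annotated exon was 33832 ± 2715 (SD, n = 3) for VIM and 2979 ± 87.4 for CDH11. SNAI2 followed with 1170 ± 176, and then CDH2 with 728 ± 38.9, FN1 with 709.2 ± 167 and CDH3 with 518.7 ± 66.9 per kb. The lower end of the order was ZEB1 with 392.3 ± 29.6, TWIST1 with 343.3 ± 24.6, CDH1 with 140.3 ± 53.5 and SNAI1 with 73.95 ± 9.55 per kb. The ranges of the neighbours CDH2 and FN1, FN1 and CDH3, and ZEB1 and TWIST1 overlapped. N-cadherin and OB-cadherin transcripts already exceeded E-cadherin transcripts per kb in the control cells. CDH1 stood ninth in this order in Control KD and EloB KD and the tenth, below SNAI1, in EloC KD and in all 3 peptide groups. In EloB KD its range overlapped that of SNAI1 (86.16 ± 39.3 and 75.29 ± 12 per kb).

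**Figure D1:**
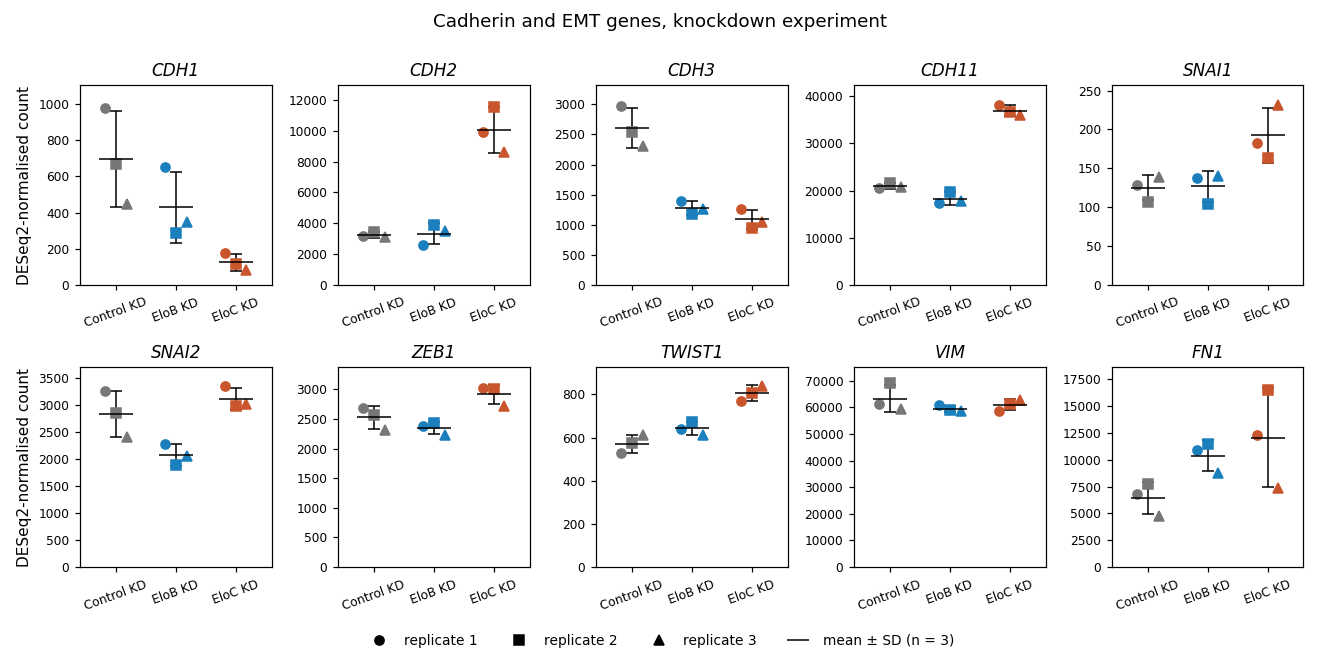
DESeq2-normalised counts (vertical axes, starting at 0) of the 10 genes in the 9 knockdown libraries, with the mean and SD of each group of 3 as black bars. EloC KD libraries lie apart from the Control KD libraries for CDH1, CDH2, CDH3, CDH11, SNAI1, ZEB1 and TWIST1, and the 3 groups overlap for VIM.

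The libraries with the Elongin C hairpin were compared with Control KD to ask how its depletion changed these transcripts. CDH1 and CDH3 fell and CDH2 and CDH11 rose, so that the cadherins of epithelia and those of mesenchyme moved in opposite directions. SNAI1, TWIST1 and FN1 rose by less than 2-fold, while SNAI2, ZEB1 and VIM did not pass the test. In all, limma with Benjamini-Hochberg adjustment over 13764 genes called 7 of the 10 genes, 5 higher and 2 lower, at an adjusted p under 0.05. In this comparison 42.5% of all genes tested were called (2926 higher, 2918 lower), and the median log2 fold change was 0.35 over the 10 genes and 0.01 over all genes. With the replicate block 57.0% of all genes were called, and of the 10 genes 6 were higher and 2 lower.

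CDH1 (chr16:68737225-68835548, GRCh38), the E-cadherin gene, had 978.8, 666.5 and 449.3 normalised counts in replicates 1 to 3 of Control KD and 176.1, 115.8 and 81.05 in those of EloC KD. Every EloC KD library was below every Control KD library, although Control KD itself spanned more than 2-fold. CDH1 fell by 2.48 ± 0.37 (SE) on the log2 scale, 5.58-fold, with a limma adjusted p of 0.0005. Between libraries of the same number, the EloC KD level was 0.18, 0.174 and 0.18 of the Control KD level. CDH1 was highest in replicate 1 of all 3 knockdown groups. Its level fell from replicate 1 to replicate 3 in Control KD and EloC KD, whereas replicate 2 was lowest in EloB KD. In bulk RNA, fewer cells that express a gene and less of its RNA per cell cannot be told apart.

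CDH3 (chr16:68636189-68722616), the neighbouring P-cadherin gene on the same strand, is expressed in basal epithelia. Its levels were 2973, 2539 and 2311 normalised counts in Control KD and 1266, 944.3 and 1054 in EloC KD. The groups did not overlap, and CDH3 fell by 1.26 ± 0.13 on the log2 scale, 2.4-fold (limma adjusted p 7.23e-05).

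CDH2 (chr18:27950966-28177446), the N-cadherin gene, had 3155, 3437 and 3123 normalised counts in Control KD and 9955, 11561 and 8613 in EloC KD. All EloC KD libraries were well above all Control KD libraries. CDH2 rose 3.08-fold (log2 1.62 ± 0.15, limma adjusted p 3.88e-05), with 3.16, 3.36 and 2.76 times the control level in the same-numbered pairs. CDH11 (chr16:64943753-65126112), the OB-cadherin gene typical of osteoblasts and stromal cells, had 20439, 21638 and 20797 normalised counts in Control KD and 38161, 36704 and 35946 in EloC KD. The groups were again apart, with a smaller fold than that of CDH2: CDH11 rose 1.76-fold (log2 0.82 ± 0.08, limma adjusted p 5.47e-05).

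The ratio of N-cadherin to E-cadherin transcripts per kb put both movements into 1 value for each library. It was 3.61, 5.77 and 7.77 in Control KD, 4.45, 15.2 and 11.2 in EloB KD, and 63.2, 112 and 119 in EloC KD. The EloC KD libraries were far above both other groups, which overlapped each other. The ratio of CDH2 to CDH3 per kb was 1.2 to 1.53 in Control KD, 2.1 to 3.75 in EloB KD and 8.89 to 13.8 in EloC KD, 3 ranges without overlap. The ratio of CDH11 to CDH2 per kb went the other way, from 3.98 to 4.21 in Control KD to 2.01 to 2.64 in EloC KD. In the peptide libraries the ratio of CDH2 to CDH1 was 14.3 to 35.1 with overlapping groups. These cells differed from the knockdown cells in serum and treatment, and the ratio was not tested between the experiments.

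**Figure D2:**
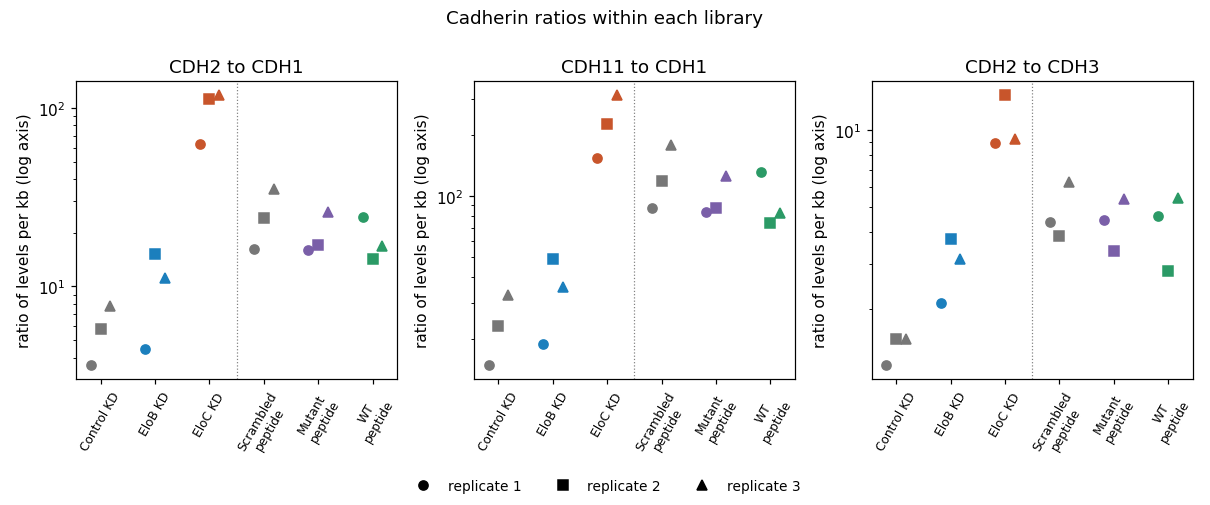
Ratios between cadherin transcripts per kb of annotated exon (log axes) in each of the 18 libraries, with the knockdown groups left and the peptide groups right of the dotted line. For CDH2 to CDH1 the EloC KD libraries (63.2 to 119) lie above all others, and the 3 peptide groups overlap.

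Among the transcription factors, SNAI1 and TWIST1 rose in EloC KD. SNAI1 (chr20:49982999-49988886) had 128.1, 107.1 and 138.8 normalised counts in Control KD and 182.1, 162.9 and 231.6 in EloC KD. The groups did not overlap, but the gap between them was small beside their spread. SNAI1 rose 1.53-fold (log2 0.61 ± 0.20, limma adjusted p 0.0289), and without EloC KD replicate 1 or 3, or Control KD replicate 1 or 2, the adjusted p was 0.0552, 0.112, 0.0538 and 0.1. TWIST1 (chr7:19020991-19117672) had 529.4, 575.2 and 611.2 normalised counts in Control KD and 769.9, 808.2 and 841 in EloC KD. The groups were clearly separate, and TWIST1 rose 1.41-fold (log2 0.50 ± 0.11, limma adjusted p 0.00373).

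ZEB1 and SNAI2 moved little in EloC KD. ZEB1 (chr10:31318495-31529814) had 2691, 2566 and 2317 normalised counts in Control KD and 3020, 2998 and 2724 in EloC KD. The groups did not overlap, although their nearest libraries were close (2691 and 2724). Its log2 fold change was 0.21 (95% confidence interval 0.01 to 0.41, limma adjusted p 0.0853), and with the replicate block, under which 57.0% of all genes were called, the adjusted p was 0.0209. SNAI2 (chromosome 8), which encodes the repressor Slug, had 3261, 2857 and 2407 normalised counts in Control KD and 3359, 2979 and 3020 in EloC KD. These ranges overlapped, and the log2 fold change of 0.14 had a 95% confidence interval of -0.13 to 0.41 (limma adjusted p 0.364).

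VIM and FN1 are the structural genes of the mesenchymal state. VIM (chr10:17228259-17237593) encodes vimentin and had 61253, 68955 and 59385 normalised counts in Control KD and 58789, 61120 and 62913 in EloC KD. The ranges overlapped, and the log2 fold change was -0.05 with a 95% confidence interval of -0.25 to 0.15 (limma adjusted p 0.681). FN1 (chr2:215360440-215436172) encodes fibronectin, the matrix ligand of α5β1 integrin, and had 6812, 7757 and 4781 normalised counts in Control KD and 12357, 16512 and 7348 in EloC KD. EloC KD replicate 3 lay below Control KD replicate 2, so the groups overlapped, while each EloC KD library was above its same-numbered control (1.81, 2.13 and 1.54 times). FN1 rose 1.81-fold (log2 0.86 ± 0.27, limma adjusted p 0.0244). The call was lost without EloC KD replicate 1 (adjusted p 0.0668), EloC KD replicate 2 (0.0958) or Control KD replicate 3 (0.0854).

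SNAI and ZEB proteins bind the E-box CAGGTG. The 250 bases before the annotated starts of CDH2, ZEB1, VIM and FN1 were searched for this E-box on both strands (CACCTG on the reverse). No promoter sequence of CDH1, CDH3, CDH11, SNAI1 or TWIST1 was available, and that of SNAI2 was not searched. The E-boxes of the CDH1 promoter were therefore not examined. RefSeq promoter sequences (GRCh38.p14) of CDH2 and ZEB1 are shown, with E-box letters in capitals and the strand of the gene read 5′ to 3′. CDH2 was chosen because, among CDH1, CDH2, CDH3 and CDH11, it rose most in EloC KD. ZEB1 was chosen because it is itself such a repressor. The CDH2 window is chr18:28177131-28177380 on the minus strand and the ZEB1 window chr10:31318167-31318416 on the plus strand:
CDH2: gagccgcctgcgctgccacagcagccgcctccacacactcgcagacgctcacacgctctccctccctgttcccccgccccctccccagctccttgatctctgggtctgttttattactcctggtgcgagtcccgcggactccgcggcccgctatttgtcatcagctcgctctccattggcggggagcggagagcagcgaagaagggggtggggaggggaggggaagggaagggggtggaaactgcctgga
ZEB1: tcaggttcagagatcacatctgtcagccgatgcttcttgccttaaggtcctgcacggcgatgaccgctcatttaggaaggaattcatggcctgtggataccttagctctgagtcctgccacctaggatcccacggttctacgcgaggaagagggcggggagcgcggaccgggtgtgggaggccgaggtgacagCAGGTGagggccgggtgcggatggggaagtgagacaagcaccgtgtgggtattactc
The CDH2 window holds no match and 17 CG dinucleotides. The ZEB1 window, at start 1 of 7 annotated starts, holds 1 match, 57 bases before the start, and 15 CG dinucleotides. Of the other ZEB1 windows 5 hold no match and that of start 3 holds 2, and the 2 CDH2 windows both hold 0. Of 35116 promoter windows of this length, 17.5% hold at least 1 match, so the presence of a match describes the sequence only. The VIM window (chr10:17227991-17228240) and the FN1 window (chr2:215436069-215436318, minus strand) hold 0 matches.

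**Figure D3:**
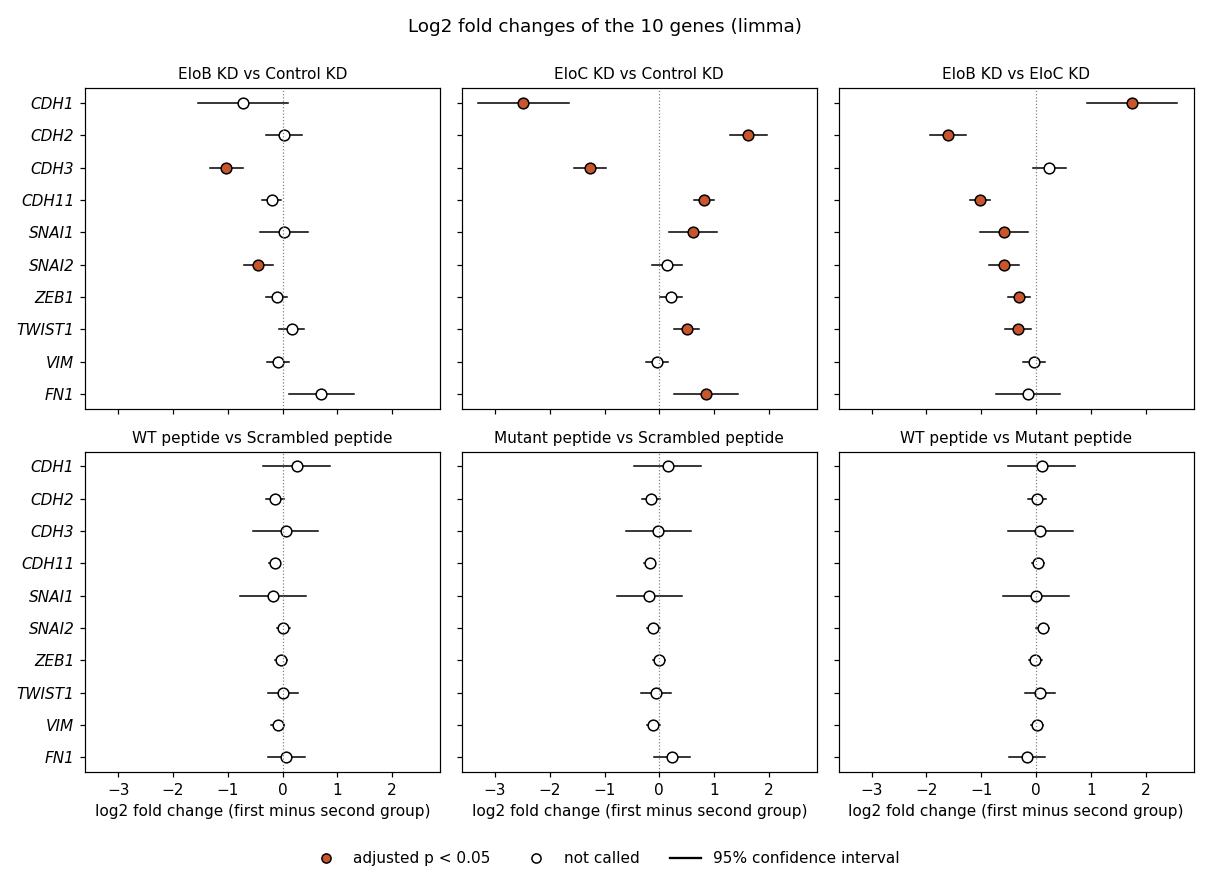
Log2 fold changes (horizontal axes) of the 10 genes in the 6 comparisons with 95% confidence intervals from limma, with filled points at an adjusted p under 0.05. CDH1 has the lowest value (-2.48, EloC KD against Control KD) and also the highest (1.76, EloB KD against EloC KD). Against Control KD the highest value is that of CDH2 in EloC KD (1.62), and no gene is filled in the peptide comparisons.

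The EloB KD libraries were compared with the same Control KD libraries, so both knockdown comparisons share their controls. CDH3 and SNAI2 fell, and limma called no other of the 10 genes. The cadherins and the mesenchymal genes that rose in EloC KD were near the control level, with the exception of FN1, whose EloB KD libraries all lay above those of Control KD. The 2 genes called were both lower, and 20.5% of all genes tested were called in this comparison (1285 higher, 1537 lower). The median log2 fold change was -0.10 over the 10 genes and 0.00 over all genes. With the replicate block 36.3% of all genes were called (2410 higher, 2586 lower), and 5 of the 10 genes, 1 higher and 4 lower.

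CDH3 had 1392, 1171 and 1267 normalised counts in EloB KD, all below the lowest Control KD library (2311). It fell by 1.03 ± 0.13 on the log2 scale, 2.04-fold (limma adjusted p 0.000701). CDH1 had 651.3, 285.3 and 349.4 normalised counts in EloB KD. These overlapped Control KD, and the log2 fold change of -0.72 ± 0.37 gave a limma adjusted p of 0.201. Each EloB KD library was nevertheless below its same-numbered control (0.665, 0.428 and 0.778 times), and with the replicate block the adjusted p was 0.00669.

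CDH2 had 2590, 3884 and 3511 normalised counts in EloB KD, on both sides of the Control KD range, with a log2 fold change of 0.02 (95% confidence interval -0.31 to 0.35, limma adjusted p 0.941). CDH11 had 17369, 19801 and 17684 normalised counts, all below the Control KD libraries by a small margin. Its log2 fold change was -0.20 ± 0.08 with a limma adjusted p of 0.112, and of 0.0472 with the replicate block.

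SNAI2 had 2285, 1890 and 2056 normalised counts in EloB KD, below the lowest Control KD library of 2407. It fell by 0.45 ± 0.12 on the log2 scale, 1.36-fold (limma adjusted p 0.0264). The call was lost without EloB KD replicate 2 or 3 (adjusted p 0.09 and 0.0708), without Control KD replicate 1 or 2 (0.085 and 0.0756), and under quantile normalisation (0.0532). SNAI1 had 103.7 to 140.1 normalised counts and ZEB1 2234 to 2430, and both overlapped Control KD, with log2 fold changes of 0.02 and -0.10. TWIST1 had 639.2, 674.2 and 613.6 normalised counts, just above the highest Control KD library (611.2), with a log2 fold change of 0.17 (limma adjusted p 0.293).

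FN1 had 10937, 11514 and 8740 normalised counts in EloB KD, all above the highest Control KD library (7757). Its log2 fold change of 0.71 ± 0.27 gave a limma adjusted p of 0.0871. With the replicate block the adjusted p was 0.00124, in a fit of the 6 libraries alone 0.0307, with DESeq2 0.035 and under quantile normalisation 0.0417. VIM had 60770, 58884 and 58548 normalised counts, which overlapped Control KD, with a log2 fold change of -0.09 (95% confidence interval -0.29 to 0.11).

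EloB KD and EloC KD were also compared directly, which tests the difference between the 2 knockdowns. CDH1 was higher in EloB KD, 6 genes were lower, and CDH3, VIM and FN1 did not pass the test. The 7 calls stand beside 46.1% of all genes tested in this comparison (3063 higher, 3280 lower), and the median log2 fold change was -0.32 over the 10 genes and -0.01 over all genes. CDH1 was the gene higher in EloB KD, 3.38-fold above EloC KD (log2 1.76 ± 0.37, limma adjusted p 0.0032). CDH2 was 3.04-fold lower (log2 -1.60 ± 0.15, adjusted p 2.78e-05) and CDH11 2.02-fold lower (log2 -1.02 ± 0.08, adjusted p 1.21e-05). With the replicate block 59.4% of all genes were called, and of the 10 genes 2 were higher and 6 lower in EloB KD.

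All 4 transcription factors were lower in EloB KD than in EloC KD. SNAI1 differed by a log2 fold change of -0.59 ± 0.20 (limma adjusted p 0.0314), SNAI2 by -0.59 ± 0.12 (0.0027), ZEB1 by -0.31 ± 0.09 (0.016) and TWIST1 by -0.33 ± 0.11 (0.027). Of these, only the SNAI2 call held without each of the 6 libraries in turn, and the others were lost without at least 1 of them. CDH3, which was lower than Control KD in both knockdowns, differed between them by 0.24 (95% confidence interval -0.06 to 0.54, adjusted p 0.173, and 0.031 with the replicate block, under which 59.4% of all genes were called). FN1 differed by -0.15 (95% confidence interval -0.74 to 0.44) and VIM by -0.04 (-0.24 to 0.16), so the intervals leave room for a FN1 difference of more than 1.5-fold but not for one of that size in VIM.

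In the authors' deposited tables of DESeq2 results, 3 of the 10 genes had an adjusted p under 0.05 for EloB KD against Control KD (CDH3 1.89e-10, SNAI2 0.00646 and FN1 0.0408). For EloC KD against Control KD the authors' deposited table had 7 such genes, with 1.91e-10 for CDH1 and 4.7e-21 for CDH2. Between the knockdowns it had 7, and for the WT peptide 0.

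Of the 11 related gene lists together, the 126 tested genes had 10 higher and 20 lower calls in EloB KD, 23.8% against 20.5% of all genes, and 29 higher and 27 lower calls in EloC KD, 44.4% against 42.5%. With the replicate block the same genes had 21 higher and 38 lower calls in EloB KD, 46.8% against 36.3%, and 43 higher and 37 lower in EloC KD, 63.5% against 57.0%. Counts of a single list are descriptions beside these shares.

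Of 19 other cadherin genes, 10 were abundant enough to test, and limma called 1 higher and 1 lower in EloB KD and 2 higher and 1 lower in EloC KD (with the block 2 and 1, and 3 and 1). CDH24 had 2222 normalised counts in EloC KD against 857.8 in Control KD (log2 1.38 ± 0.11, adjusted p 2.05e-05). The other cadherin counted as higher in EloC KD, CDH18, had a mean of 5.332 normalised counts in Control KD and 50.92 in EloC KD, and passed the filter on low values only through the group where it was high. CDH7 rose from a mean of 32.51 to 83.01 normalised counts in EloB KD (adjusted p 0.00431). CDH12 fell by 0.76 in EloC KD and by 0.87 in EloB KD on the log2 scale (adjusted p 0.0267 and 0.0289).

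Catenins link the cadherin tail to actin. CTNNA1, the αE-catenin gene, was close to absent: it had 2.634 to 21.67 normalised counts over the 9 libraries of the knockdown experiment and 1.065 to 9.174 over those of the peptide experiment, whereas CTNNB1, the β-catenin gene, had 18112 to 25510 in the knockdown libraries. Of 11 catenin and adaptor genes tested, 2 were higher and 2 lower in each knockdown (with the block 2 and 3 in EloB KD, and 4 and 2 in EloC KD). CTNND1, which encodes the p120 catenin that keeps cadherins at the membrane, fell by 0.40 in EloB KD and by 0.43 in EloC KD on the log2 scale (limma adjusted p 0.0429 and 0.016). NECTIN3, an immunoglobulin-type adhesion molecule of the same junctions, rose 1.44-fold in EloB KD and 1.87-fold in EloC KD (adjusted p 0.00715 and 0.00014). AFDN, the afadin that anchors nectins, rose 1.25-fold in EloB KD, and in EloC KD it fell by 0.57 on the log2 scale (adjusted p 0.0268 and 0.00057), and the direct comparison gave 0.90 ± 0.09 (adjusted p 3.4e-05). JUP, the plakoglobin gene, fell by 0.57 on the log2 scale in EloB KD (adjusted p 0.0247), and NECTIN2 rose 1.45-fold in EloC KD (0.0158).

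Of 9 genes for desmosomal cadherins and plaque proteins tested, 4 rose and 3 fell in EloC KD, where 42.5% of all genes were called, and 0 rose and 2 fell in EloB KD, where 20.5% were. With the block 5 rose and 4 fell in EloC KD, and 0 rose and 5 fell in EloB KD. The desmoglein gene DSG2 rose 1.9-fold and the plakophilin genes PKP2 2.15-fold and PKP1 1.48-fold in EloC KD, while PKP4, a p120 relative, fell by 0.94 on the log2 scale (limma adjusted p of at most 0.00162 for all 4). In EloB KD PKP3 fell 2.02-fold (adjusted p 0.00998) and DSC3 by 0.33 on the log2 scale (0.0226).

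Of 9 other transition-associated transcription factors tested, 3 were higher and 1 lower in EloC KD, and 0 were higher and 2 lower in EloB KD, with and without the block. HMGA2, a chromatin protein upstream of SNAI1 and TWIST1, rose 1.57-fold in EloC KD, and in EloB KD it fell by 0.71 on the log2 scale (limma adjusted p 0.0354 and 0.0438). FOSL1, the AP-1 subunit FRA1, rose 1.28-fold in EloC KD and fell by 0.33 in EloB KD (adjusted p 0.00458 and 0.0161). The E-protein genes diverged in EloC KD, with TCF3 1.36-fold higher (0.0371) and TCF4 lower by 0.48 on the log2 scale (0.00755). ZEB2 was scarce, with 105.9 to 187.6 normalised counts across the knockdown libraries and overlapping groups, and TWIST2 had no read in any of them.

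Among 10 tested genes that hold the epithelial state, 0 were higher and 4 lower in EloB KD (20.5% of all genes called) and 1 was higher and 3 lower in EloC KD (42.5%). With the replicate block 0 were higher and 8 lower in EloB KD, and 3 were higher and 3 lower in EloC KD. The median log2 fold change of the list was -0.84 in EloB KD and -0.13 in EloC KD. FOXA1, a pioneer factor of prostate luminal cells, had 5803 to 9119 normalised counts in Control KD, 2867 to 4006 in EloB KD and 1679 to 2877 in EloC KD. FOXA1 fell by 1.10 on the log2 scale in EloB KD and by 1.66 in EloC KD (limma adjusted p 0.00773 and 0.000293). The splicing regulator gene ESRP1 fell by 0.81 in EloC KD (0.00165), and its paralog ESRP2 by 0.83 in EloB KD (0.0034) and by 0.44 in EloC KD (0.0335). KLF4 rose 1.36-fold in EloC KD (0.0277), and ELF3 fell 2.11-fold in EloB KD (0.019).

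Of 12 epithelial marker genes tested, 3 rose and 5 fell in EloC KD, and 1 rose and 2 fell in EloB KD (with the block 3 and 6, and 3 and 4). EPCAM, an epithelial adhesion molecule, had 1573 to 1945 normalised counts in Control KD, 1190 to 1477 in EloB KD and 365.5 to 607.3 in EloC KD. EPCAM fell 3.39-fold in EloC KD (log2 -1.76 ± 0.18, limma adjusted p 6.45e-05), and KRT18, a simple-epithelial keratin, 1.94-fold (0.00029). The tight junction genes CLDN4 and OCLN rose in EloC KD instead, 1.98-fold and 2-fold (0.000293 and 0.00177). In EloB KD CLDN4 rose 1.58-fold (0.00698), and KRT19 and CLDN7 fell by 0.53 and 0.49 on the log2 scale (0.0268 and 0.0363).

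Of 20 mesenchymal marker genes other than VIM and FN1, 4 rose and 4 fell in EloC KD and 3 rose and 2 fell in EloB KD, shares near the 42.5% and 20.5% of all genes. With the block 7 rose and 5 fell in EloC KD, and 4 rose and 4 fell in EloB KD. COL1A1, a chain of type I collagen, had 485.6 to 657.4 normalised counts in Control KD, 492.7 to 835.8 in EloB KD and 1919 to 2464 in EloC KD, a 3.96-fold rise in EloC KD (log2 1.99 ± 0.19, limma adjusted p 4.86e-05). CD44 and the matrix gene TNC rose 1.59-fold and 1.7-fold (0.00125 and 0.00237), and CTHRC1 fell by 0.61 on the log2 scale (0.000368). In EloB KD COL3A1 rose 2.46-fold (0.00199) and the smooth muscle actin gene ACTA2 2.11-fold (0.00844), while PDGFRB fell 3.16-fold at a mean of 14.13 normalised counts (0.00714). The summed level of 7 fibroblast markers was 944 to 1308 in Control KD, 903.8 to 1424 in EloB KD and 2965 to 3681 in EloC KD. COL1A1, COL1A2, COL3A1 and PDGFRB are in both lists. Of the 7, COL1A1, LUM (11.3 to 40.76 normalised counts, 3.52-fold, limma adjusted p 0.00104) and PDGFRA (319.8 to 782.8, 2.39-fold, 0.0249) rose in EloC KD, COL1A2 and PDGFRB fell, and COL3A1 was not called. DCN was too low to test, with 0 to 1.217 normalised counts in Control KD, 3.727 to 6.723 in EloB KD and 9.895 to 17.15 in EloC KD. The part of other cell types in these results was not tested.

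**Figure D4:**
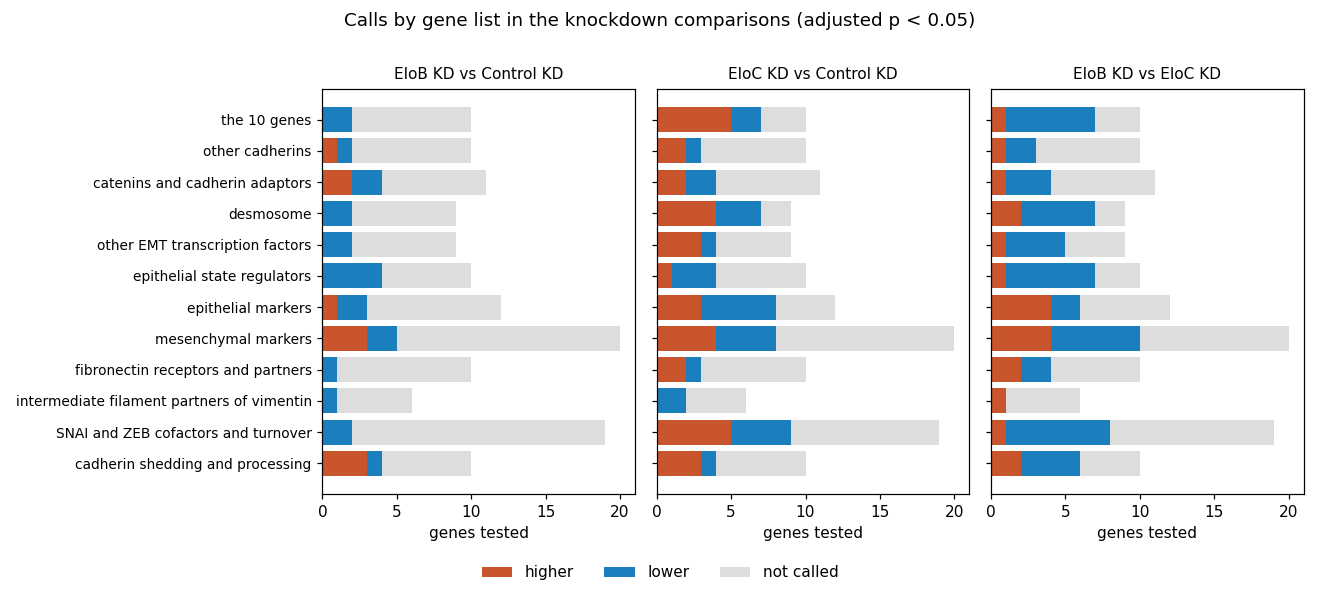
Number of genes called higher (red), called lower (blue) or not called (grey) by limma at an adjusted p under 0.05 (horizontal axes) for the 10 genes and 11 related lists in the 3 knockdown comparisons. EloC KD against Control KD has 7 of the 10 genes called against 2 in EloB KD. Most lists hold calls in both directions in the comparisons with EloC KD, and most hold only lower calls in EloB KD against Control KD.

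Fibronectin is bound by α5β1 and related integrins. Of 10 receptor and partner genes tested, 2 rose and 1 fell in EloC KD and 0 rose and 1 fell in EloB KD. With the block 4 rose and 5 fell in EloC KD, and 3 rose and 2 fell in EloB KD. ITGA5, the α5 chain, rose 2.85-fold in EloC KD (log2 1.51 ± 0.14, limma adjusted p 4.24e-05), and ITGA3 1.84-fold (0.000209). ITGB3, the β3 chain, fell by 1.19 on the log2 scale in EloC KD and by 0.62 in EloB KD (0.000405 and 0.0291). Among 6 partners of vimentin tested, 0 rose and 1 fell in EloB KD (with the block 0 and 2) and 0 rose and 2 fell in EloC KD. SYNM fell in both knockdowns (by 0.79 in EloB KD and by 0.89 in EloC KD, 0.000983 and 0.00018) and NES, the nestin gene, fell 2-fold in EloC KD (0.000819), although VIM itself did not pass the test.

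The cofactors that SNAI and ZEB proteins recruit, and the ligases that turn them over, gave 5 higher and 4 lower of 19 tested in EloC KD and 0 and 2 in EloB KD (with the block 7 and 5, and 3 and 3). FBXW7 and SIAH2, ubiquitin ligase genes, rose 1.74-fold and 1.7-fold in EloC KD (limma adjusted p 0.000271 and 0.00116), and the corepressor gene CTBP2 rose 1.44-fold (0.00125). HDAC1, a deacetylase of the SNAI1 and ZEB1 complexes, fell by 0.45 on the log2 scale in EloB KD and by 0.68 in EloC KD (0.0237 and 0.00123). RCOR1, the CoREST gene, fell by 0.75 in EloB KD (0.000293). Among 10 genes for cadherin shedding and turnover, 3 rose and 1 fell in each knockdown (with the block 4 and 4 in EloB KD, and 4 and 3 in EloC KD). RNF43, a ubiquitin ligase gene, rose 1.59-fold in EloB KD and 3.04-fold in EloC KD (limma adjusted p 0.0173 and 6.01e-05). FURIN, a proprotein convertase gene, rose 1.46-fold in EloB KD (0.0221), and the metalloprotease gene ADAM15 rose 1.28-fold in EloC KD (0.0223). CBLL1, the E-cadherin ligase Hakai, rose 1.31-fold in EloC KD (limma adjusted p 0.00703).

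The same transcripts were then compared between the peptide groups. None of the 10 genes was called by limma in any of the 3 comparisons. For the WT against the Scrambled peptide 1.43% of the 13105 genes tested were called (110 higher, 78 lower), and for the Mutant against the Scrambled and the WT against the Mutant peptide 0%. At an unadjusted p under 0.05 limma had 1 of the 10 genes in each comparison and 1753, 1142 and 898 of all genes. edgeR called 0 of the 10 genes in each comparison, and DESeq2 called 0, 1 and 0, the 1 being CDH11 for the Mutant peptide (adjusted p 0.0357).

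**Figure D5:**
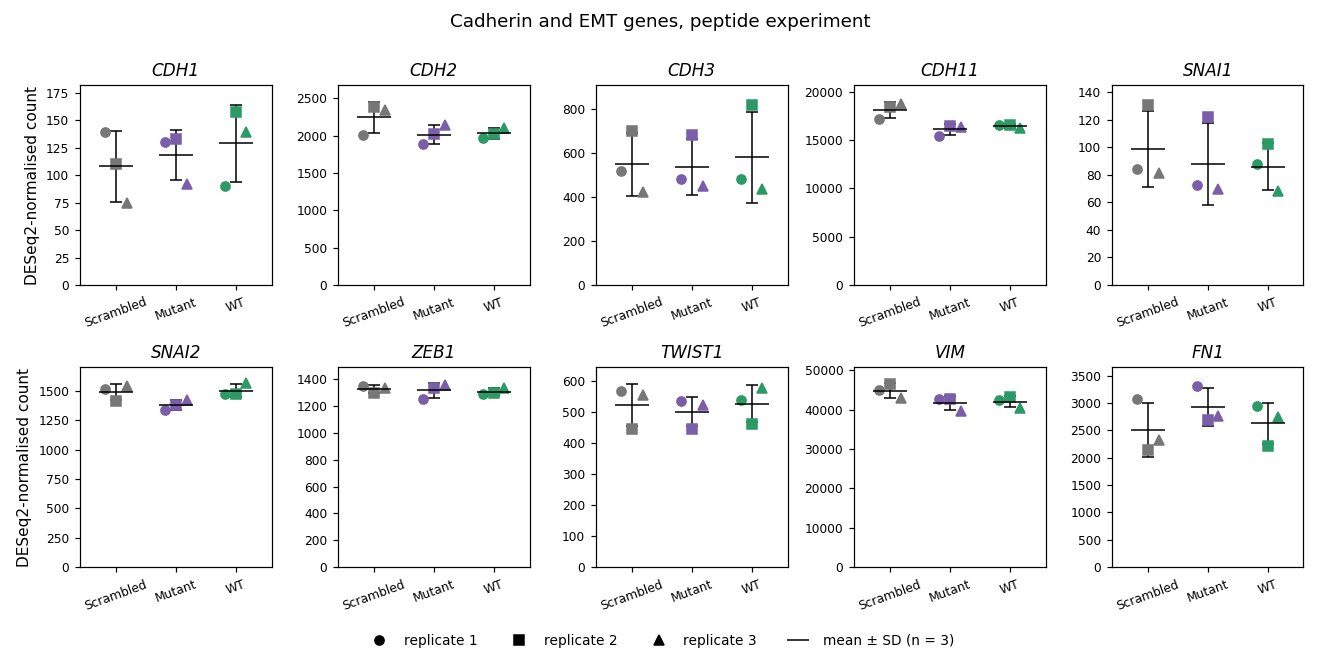
DESeq2-normalised counts (vertical axes, starting at 0) of the 10 genes in the 9 peptide libraries, with the mean and SD of each group of 3 as black bars. The groups overlap for most genes, CDH11 with the WT and Mutant peptides lies below the Scrambled range, and replicate 2 is highest for CDH3 and SNAI1 in every group.

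CDH11 was the cadherin with the most even levels. It had 17150, 18432 and 18775 normalised counts with the Scrambled peptide, 15454, 16458 and 16353 with the Mutant peptide and 16603, 16520 and 16263 with the WT peptide. All libraries of both BC-box peptides were below all Scrambled peptide libraries, by a log2 fold change of -0.14 ± 0.05 for the WT peptide and -0.17 ± 0.05 for the Mutant peptide. The limma adjusted p was 0.207 and 0.262, and 0.00987 and 0.00444 with the replicate block, under which 16.2% and 8.30% of all genes were called. The WT and Mutant peptides differed by 0.03 (95% confidence interval -0.07 to 0.14).

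CDH2 had 2009, 2377 and 2348 normalised counts with the Scrambled peptide, 1881, 2014 and 2135 with the Mutant and 1965, 2020 and 2104 with the WT peptide. The ranges overlapped, and the log2 fold changes were -0.14 (WT) and -0.16 (Mutant), with limma adjusted p values of 0.453 and 0.599, and of 0.0342 and 0.0343 with the replicate block. VIM had 42877 to 46557 normalised counts with the Scrambled, 39604 to 42848 with the Mutant and 40421 to 43178 with the WT peptide. The Mutant range lay just below the Scrambled range and the WT range overlapped it. Its log2 fold changes were -0.09 (WT) and -0.11 (Mutant), with adjusted p values of 0.487 and 0.614, and of 0.0299 and 0.0293 with the block. With the block 3 of the 10 genes were thus lower for the WT peptide, and for the Mutant peptide 3 were lower and FN1 was higher (log2 0.23, adjusted p 0.0148). The block called 4.09% of all genes and 0 of the 10 between the WT and Mutant peptides.

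CDH1 was low and uneven in the peptide libraries. It had 139, 110.3 and 74.85 normalised counts with the Scrambled, 130.5, 132.8 and 91.92 with the Mutant and 89.9, 157.6 and 139.5 with the WT peptide. The groups overlapped throughout, and the same-numbered pairs disagreed in direction for the WT peptide (0.647, 1.43 and 1.86 times the Scrambled level). Its log2 fold change for the WT peptide was 0.26, with a 95% confidence interval of -0.35 to 0.87. CDH3 had 437 to 816.9 and SNAI1 68.24 to 131 normalised counts, each highest in replicate 2 of all 3 groups, so that the spread between numbers was larger than any difference between peptides.

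SNAI2 had 1472 to 1566 normalised counts with the WT peptide, 1342 to 1423 with the Mutant and 1418 to 1546 with the Scrambled peptide. The WT and Mutant ranges did not overlap, with a log2 fold change of 0.12 (95% confidence interval 0.00 to 0.24, limma adjusted p 0.726). ZEB1 had 1251 to 1358 and TWIST1 447 to 579.6 normalised counts over the 9 libraries, with log2 fold changes between -0.06 and 0.07 in the 3 comparisons. FN1 had 3073, 2141 and 2315 normalised counts with the Scrambled, 3318, 2688 and 2762 with the Mutant and 2936, 2210 and 2739 with the WT peptide, with replicate 1 highest in each group and overlapping ranges.

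Of 121 genes of the related lists tested, limma called 3 with the WT peptide against the Scrambled peptide, all lower: ELF3 by 0.45 (adjusted p 0.0444), the integrin gene ITGA3 by 0.26 (0.0197) and TGM2, a transglutaminase that crosslinks fibronectin, by 0.70 (0.0142) on the log2 scale. TGM2 had 1188 to 1506 normalised counts with the Scrambled peptide, 986.1 to 1171 with the Mutant and 782.3 to 935.2 with the WT peptide, 3 ranges without overlap. limma called 0 of the 121 in the other 2 peptide comparisons, where 23 (Mutant against Scrambled) and 7 (WT against Mutant) had an unadjusted p under 0.05. With the replicate block 11 of the 121 were higher and 23 lower for the WT against the Scrambled peptide, where 16.2% of all genes were called. In the same fit 7 were higher and 16 lower for the Mutant against the Scrambled peptide (8.30% of all genes), and 4 were higher and 2 lower for the WT against the Mutant peptide (4.09%). EPCAM, which fell in EloC KD, had 622.5 to 717.8 normalised counts with the WT peptide against 629.2 to 661.7 with the Scrambled peptide.

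The genes whose levels were most like those of a member over the 9 knockdown libraries are given as a description, since all 9 points share the 3 groups and the group means dominate. CDH2 was most like DOCK10, SDHAF2 and FYN (Pearson r of log2 levels 0.995, 0.993 and 0.992), and CDH1 most like TCP11L2, GNA14 and ZBTB25 (0.989, 0.987 and 0.985). DOCK10 had a mean of 833.1 normalised counts in Control KD, 839 in EloB KD and 3397 in EloC KD. SNAI2 was most like MPZL3, PFKM and CEACAM1 (0.98, 0.978 and 0.97), ZEB1 most like KMT2E, WASL and DOCK4 (0.982, 0.982 and 0.981), and FN1 most like ZBTB20, PARD3B and RNF13 (0.976, 0.959 and 0.958). VIM, which varied least between groups, had the lowest values, with DNTTIP1, USP18 and DAP at 0.912, 0.895 and 0.874. Over the 9 peptide libraries the same pairs gave values from -0.69 (VIM and DAP) to 0.74 (CDH1 and ZBTB25).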

How the data were processed

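Per the labels' protocols, libraries were stranded and made from mRNA of column-purified, DNase-treated RNA. The submitters' processing notes name hg38, featureCounts and DESeq2 without versions, and the counts per gene were made by the authors. Whether the counting used strand is not given in the sources used here, so reads of an antisense partner cannot be told apart from those of its gene. The authors deposited 1 table per experiment with the signal of each gene as a DESeq2-normalised count, and 4 tables of their own comparisons, of which only the deposited adjusted p-value was used. Dividing each library by its smallest step gave whole reads for 100.0% of the values above 0, within 0.05 reads. No value column was without a sample (0 columns).

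The main test was limma 3.58.1 (R 4.3.3), fitted with an intensity trend to log2(normalised count + 1) over the 9 libraries of an experiment, with a minimum mean of 10 per gene. This kept all 10 genes among 13764 and 13105 genes. Fold changes are on that log2 scale, errors of fold changes are SEs and errors of levels SDs, tests are 2-sided, and Benjamini-Hochberg adjustment ran over all genes tested with a threshold of 0.05. With 3 libraries against 3 the smallest exact permutation p is 0.1, so no such test was used. edgeR 4.0.16 and DESeq2 1.42.0 were run on the recovered reads as alternatives, beside scaling by TMM or quantiles, changed pseudocounts and filters, a fit of 6 libraries, the replicate block, a threshold of 0.01 and each library left out. The scripts were tested on simulated data.

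Nothing in the labels says that numbered replicates came from separate cultures, and p-values therefore reflect only how these libraries varied, which may be technical. Deviations from the group means correlated at 0.236 to 0.566 (knockdown) and 0.254 to 0.715 (peptide) between libraries of the same number, and at -0.439 to 0.07 and -0.546 to 0.336 between others. The numbers were therefore taken to pair the samples. Replicates differed by more than sampling noise, with a chi-square per degree of freedom of 5.06 to 78.36.

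The 10 genes and the 11 related lists were chosen with earlier results of these data known. All 10 genes, the targeted genes, CTNNA1, ZEB2 and EPCAM were named, and members at or near 0. Up to 4 genes per list and comparison were also named, mostly but not always those with the smallest adjusted p. CTNNB1 and the fibroblast markers were named after their values were seen, and 1 gene of the lists is not reported here. Likeness was ranked over genes with a mean of at least 50, 3 per member for 6 members. Gene positions and exon lengths are from GENCODE 29 (GRCh38).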

Additional observations from a re-analysis of the deposited data

How the results depend on the processing

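Of 990 values of single genes under alternatives, 39 changed their call: 23 lost it, 16 gained it and 0 changed sign of a called value, and 42 of 60 gene and comparison pairs had no change. Calls of CDH1, CDH2, CDH3, CDH11 and TWIST1 in EloC KD and of CDH3 in EloB KD held under every alternative run on them at the threshold of 0.05. The cause of the changes was not tested.

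With the replicate block (pairing by number), the 10 genes had 5 calls in EloB KD, 3 for the WT and 4 for the Mutant against the Scrambled peptide. They had 6 higher and 2 lower calls in EloC KD, and 2 higher and 6 lower calls between the knockdowns. All genes had 4996 calls in EloB KD, 7841 in EloC KD and 8171 between the knockdowns. In the peptide experiment they had 2122 (WT) and 1088 (Mutant) against the Scrambled peptide and 536 for WT against Mutant. The block changed no direction, and its counts for the related lists stand beside those lists. With DESeq2 all genes had 582, 184 and 63 calls in the 3 peptide comparisons, and the 10 genes 1 for the Mutant peptide. At a threshold of 0.01, 1 of the 10 genes was called in EloB KD and 4 between the knockdowns, and all genes had 1242 (EloB KD), 3774 (EloC KD) and 64 (WT against Scrambled). Without replicate 2 in all 3 peptide groups, added after seeing the data, 37 genes were called for Mutant against Scrambled and 21 for WT against Mutant, and 0 of the 10.

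Leaving out 1 library gave 1 to 2 of the 10 genes in EloB KD, 5 to 6 in EloC KD and 5 to 6 between the knockdowns. Over all genes it gave 1915 to 2373 (EloB KD), 4506 to 5413 (EloC KD), 5170 to 5626 (between them), 66 to 180 (WT against Scrambled) and 0 to 1 (Mutant against Scrambled). Among single libraries, calls for the WT peptide fell most without WT peptide replicate 1 (67) or 3 (66) and Scrambled peptide replicate 1 (95) or 2 (98). Replicates differed by more than counting noise (chi-square per degree of freedom 5.06 to 78.36), and each fold change rests on 3 libraries a group.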
